A study of Equus caballus with 25 samples.

Results

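IL1A, IL1B and TNF encode the cytokines interleukin 1 alpha, interleukin 1 beta and tumour necrosis factor, and this account follows their RNA in airway cells of horses with and without equine asthma. The members are the transcripts on the array that the gene lists of the study name IL1A, IL1B or TNF, and they number 4 of 7238. They are ENSECAT00000025409 for IL1A, ENSECAT00000000066 and ENSECAT00000000217 for IL1B (here the first and the second IL1B transcript), and ENSECAT00000002048 for TNF. Cells of bronchoalveolar lavage fluid from 25 horses were measured on one-colour arrays, 1 array for each horse. The groups were 7 control horses (CTRL), 10 horses with mild to moderate asthma (MEA, labelled IAD) and 8 with severe asthma (SEA, labelled RAO). All CTRL horses were standardbreds, the asthmatic horses were mostly saddle horses, and the SEA horses were older. Lavage cells of CTRL horses were nearly all macrophages and those of SEA horses mostly neutrophils, so in SEA against CTRL group, breed, age and the share of neutrophils cannot be told apart. MEA and CTRL horses were of similar age but differed in breed and, with no overlap, in the counted percentage of neutrophils. SEA and MEA horses differed in mean age and, again with no overlap, in the counted percentage of neutrophils. In SEA against MEA, group, age and the share of neutrophils thus cannot be told apart either. The arrays lay on 4 slides, each of which held horses of all 3 groups.

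Interleukin 1 alpha and beta bind the same receptor and, through adaptor proteins shared with Toll-like receptors, activate NF kappa B. Tumour necrosis factor is made as a membrane protein, is released by a protease and acts through its own pair of receptors, which also lead to NF kappa B. Macrophages make all of these cytokines, neutrophils that enter an inflamed airway can make them too, and the chemokine IL8 that they induce draws in more neutrophils.

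Each transcript was read by 1 probe of 60 bases, printed as 2 spots on every array. Over their whole length, the longest run of bases that the IL1B probes share was 7 bases, so they read different sequence. The following stretches of 30 bases run 5′ to 3′, with capitals marking that run. They are bases 31 to 60 of the first IL1B probe and bases 1 to 30 of the others.
IL1A: ccatgaagctctgtattctagtacctgaga
first IL1B: tgaactgcagactccgggacaTATACCAta
second IL1B: gtaccatgttTATACCAagtccttttacca
TNF: atcattgccctgtgaggggggtacgtccgt

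The content of G and C was 35% in the IL1A probe, 45% and 35% in the first and second IL1B probes, and 55% in the TNF probe. No probe shared a run of over 13 bases with any other probe of the array on the same strand, or over 12 on the other strand. All 50 spots of each member were well above background and 0 were saturated, so every horse gave a measured value for every member. A RefSeq gene table for the horse lists 2 neighbouring genes under the name IL1B, next to IL1A, and TNF on another chromosome, and the files do not say which of the IL1B genes each probe reads.

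IL1A was higher in SEA than in CTRL horses. Levels are given as the log2 of normalized fluorescence intensity, and levels of different probes are not compared. IL1A ranged from 10.06 to 13.73 in CTRL horses with a median of 12.36, from 11.13 to 14.08 in MEA horses with a median of 12.42, and from 12.85 to 16.17 in SEA horses with a median of 14.12. The means were 11.92 ± 1.32 (SD, n = 7), 12.57 ± 0.93 (SD, n = 10) and 14.23 ± 1.04 (SD, n = 8), in the order CTRL, MEA, SEA, with the neighbours CTRL and MEA within their spread of each other. The groups overlapped, but 6 of 8 SEA horses lay above every CTRL horse and 8 of 8 above the CTRL median. SEA replicate 7 was the highest horse and CTRL replicate 5 the lowest.

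**Figure D1:**
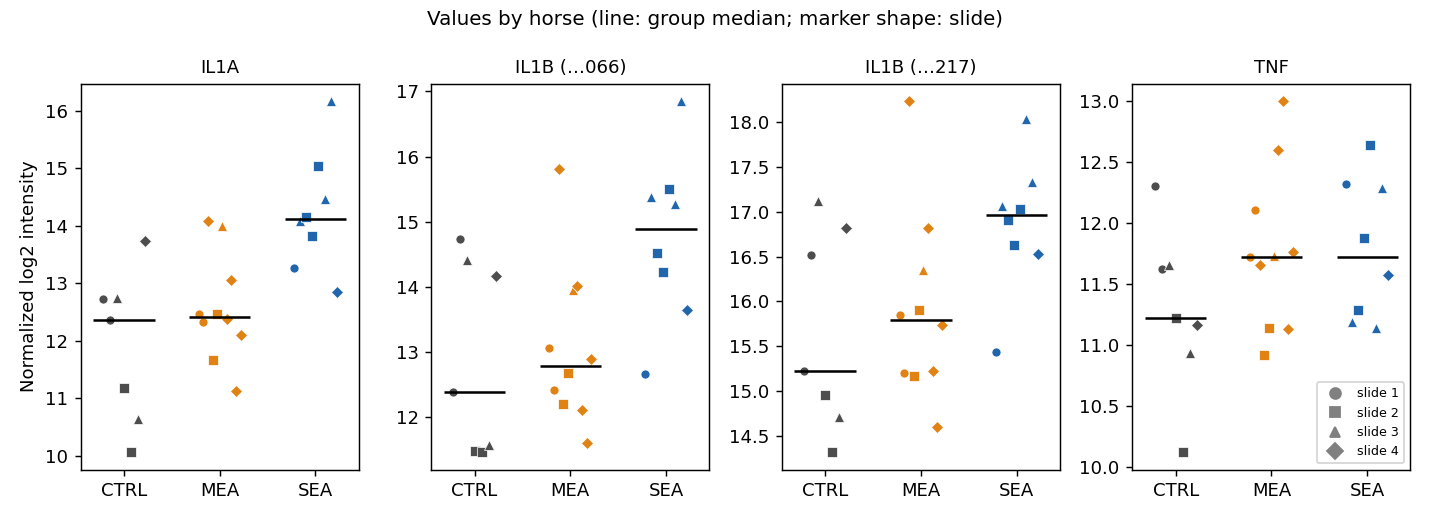
Normalized log2 intensity (vertical axis) of the 4 transcripts in each of 25 horses, by group, with a line at the group median and a marker shape for each slide. For the 3 IL-1 transcripts the SEA median lies highest, and for TNF the MEA and SEA medians are both 11.73.

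The first IL1B transcript showed the same order of group means. Its level ran from 11.47 to 14.74 in CTRL horses (median 12.39), from 11.604 to 15.81 in MEA horses (median 12.79) and from 12.67 to 16.85 in SEA horses (median 14.90). The means were 12.89 ± 1.49 (SD, n = 7), 13.08 ± 1.23 (SD, n = 10) and 14.76 ± 1.28 (SD, n = 8). Of the 8 SEA horses, 4 exceeded every CTRL horse and all 8 exceeded the CTRL median, while MEA replicate 3 exceeded 7 of them. The second IL1B transcript ran from 14.32 to 17.12 in CTRL horses (median 15.22), from 14.60 to 18.24 in MEA horses (median 15.79) and from 15.44 to 18.03 in SEA horses (median 16.97). Its means were 15.67 ± 1.13 (SD, n = 7), 15.91 ± 1.04 (SD, n = 10) and 16.87 ± 0.74 (SD, n = 8). All groups overlapped for both IL1B transcripts, CTRL and MEA means differed by less than their spread, and MEA replicate 3 had the highest level of the second transcript among all 25 horses.

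TNF was at similar levels in MEA and SEA horses, and its mean was lower in CTRL horses. It ran from 10.12 to 12.31 in CTRL horses (median 11.22), from 10.92 to 13.001 in MEA horses (median 11.73) and from 11.14 to 12.64 in SEA horses (median 11.73). The means were 11.29 ± 0.68 (SD, n = 7), 11.78 ± 0.65 (SD, n = 10) and 11.79 ± 0.58 (SD, n = 8), all within their spread of each other. CTRL replicate 5 was the lowest of all 25 horses, as it was for each IL-1 transcript. The highest was MEA replicate 8, which was the highest for no IL-1 transcript, and in SEA the lowest was replicate 6, which had the highest level of the second IL1B transcript in that group.

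The comparison of SEA with CTRL asked which of these cytokine transcripts differed in severe disease. A transcript was called changed at a Benjamini-Hochberg adjusted p below 0.1 over all 4930 tested transcripts and a fold change of at least 1.5. All 4 members passed the filter on low values, and 3 of 4 were called higher, where 32.7% of tested transcripts were called, 16.0% of them higher and 16.7% lower. The members were named by the study's lists of changed transcripts in these same horses, so the share of members called is not comparable with that of all. IL1A was 4.97-fold higher, a log2 difference of 2.31 (SE 0.56, 95% interval 1.14 to 3.49, adjusted p = 0.0129 by limma). The first IL1B transcript was 3.65-fold higher, with a log2 difference of 1.87 (SE 0.65, interval 0.49 to 3.24, adjusted p = 0.0436). The second was 2.30-fold higher, with a log2 difference of 1.20 (SE 0.45, interval 0.25 to 2.16, adjusted p = 0.0572). TNF was not called: its log2 difference was 0.50 (SE 0.31, interval -0.16 to 1.16, adjusted p = 0.250), with 6 of 8 SEA horses above the CTRL median. The paper reports TNF as upregulated in SEA, by the program SAM rather than limma. Here TNF was 1.41-fold higher, and its interval holds both no change and a rise above the 1.5-fold threshold. In a mixture of lavage cells, a change in the number of cells of a type and a change in RNA per cell cannot be told apart.

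The call of IL1A and of the first IL1B transcript was kept under each of 15 other settings and without each single horse. That of the second IL1B transcript was lost under quantile normalization (0.91, adjusted p = 0.136), by the exact rank sum test (adjusted p = 0.106), at an adjusted p below 0.05, and without CTRL replicate 1 (1.13), 4 (1.09), 5 (0.98) or 6 (1.05). Its adjusted p ran from 0.0291 to 0.136 over the settings. TNF was called only with normexp background correction (0.68, adjusted p = 0.0815), and its adjusted p ran from 0.0815 to 0.376 over the settings.

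Slides were also compared, since each held 1 to 5 horses of a group. With slide as a block, the log2 differences of SEA from CTRL were 2.35 for IL1A (adjusted p = 0.0183), 1.82 and 1.15 for the first and second IL1B transcripts (0.0608 and 0.0734) and 0.63 for TNF (0.136), with the same calls. Within slides 1, 2, 3 and 4 the differences for IL1A were 0.73, 3.72, 3.22 and -0.88. They were -0.89, 3.27, 2.84 and -0.51 for the first IL1B transcript and -0.43, 2.22, 1.56 and -0.30 for the second. The IL-1 differences were largest on slides 2 and 3, which held 3 SEA horses each, whereas slides 1 and 4 held 1 SEA horse each. TNF differed by 0.35, 1.26, 0.24 and 0.41, positive on each slide.

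In MEA against CTRL, the comparison for milder disease, 0 of 4 members were called by limma, where 9.78% of tested transcripts were called, 3.25% higher and 6.53% lower. Among all tested transcripts 1129 had an unadjusted p below 0.05, and 431 were called by the rank sum test. The log2 differences were 0.65 for IL1A (SE 0.50, interval -0.39 to 1.69, adjusted p = 0.446), 0.19 for the first IL1B transcript (SE 0.60, interval -1.07 to 1.44, adjusted p = 0.880), 0.24 for the second (SE 0.49, interval -0.78 to 1.26, adjusted p = 0.799) and 0.49 for TNF (SE 0.31, interval -0.17 to 1.15, adjusted p = 0.363). The upper ends of the IL-1 intervals, 1.69, 1.44 and 1.26, lay below the SEA difference for IL1A and the first IL1B transcript and above it for the second. Without MEA replicate 3 the IL1B differences turned to -0.12 and -0.018, and without CTRL replicate 4, 5 or 6 that of the first transcript turned to -0.048, -0.051 or -0.032. With slide as a block the differences were 0.53, 0.017, 0.073 and 0.38 for IL1A, the IL1B transcripts in order and TNF. Within slides 1 to 4, IL1A differed by -0.14, 1.44, 2.31 and -1.18 and TNF by -0.052, 0.36, 0.44 and 0.87. The first IL1B transcript differed by -0.82, 0.97, 0.96 and -0.87 and the second by -0.35, 0.90, 0.44 and -0.70, so the IL-1 transcripts had no common direction over the slides.

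Between SEA and MEA, IL1A was the member called, 3.17-fold higher in SEA (log2 difference 1.66, SE 0.43, interval 0.76 to 2.57, adjusted p = 0.0843). That is 1 of 4 members, where 2.23% of tested transcripts were called, 1.44% higher and 0.791% lower, and 5 of 8 SEA horses lay above every MEA horse. As in SEA against CTRL, the share of members is not comparable with that of all. The count of all calls, 110, ran from 2 to 559 without single horses and was 0 with slide as a block. The first IL1B transcript differed by 1.68 (SE 0.55, interval 0.53 to 2.83, adjusted p = 0.126), the second by 0.96 (SE 0.41, interval 0.10 to 1.82, adjusted p = 0.198) and TNF by 0.012 (SE 0.29, interval -0.59 to 0.62, adjusted p = 0.982). The comparisons share horses, so they are not independent of each other.

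The IL1A call in SEA against MEA was kept under 7 of 15 other settings. It was lost with slide (1.23, adjusted p = 0.283), scan date or replicate number as a block, with scaling to the 75th percentile or to quantiles, with normexp, by the rank sum test and at an adjusted p below 0.05, and over all these settings its adjusted p ran from 0.0695 to 0.287. Within slides 1 to 4 the IL1A difference was 0.87, 2.28, 0.91 and 0.29, positive on each. The first IL1B transcript differed by -0.069, 2.31, 1.87 and 0.36 within slides and by 1.28 with slide as a block, and the second by -0.082, 1.33, 1.12 and 0.40 and by 0.79. TNF differed by 0.41, 0.90, -0.19 and -0.46 within slides and by 0.24 with the block. The IL1A call was also lost without SEA replicate 2 (1.69), 3 (1.68), 4 (1.72), 5 (1.55) or 7 (1.39), or without MEA replicate 2 (1.64), 4 (1.56), 7 (1.64), 8 (1.72), 9 (1.504) or 10 (1.61). Without MEA replicate 3 both IL1B transcripts were called, at 1.99 and 1.22, and without SEA replicate 1 the first was, at 1.98. The direction of TNF turned without SEA replicate 1 (-0.064), 4 (-0.00047), 5 (-0.11) or 7 (-0.059), or MEA replicate 3 (-0.0014), 4 (-0.083), 5 (-0.059) or 9 (-0.060).

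**Figure D2:**
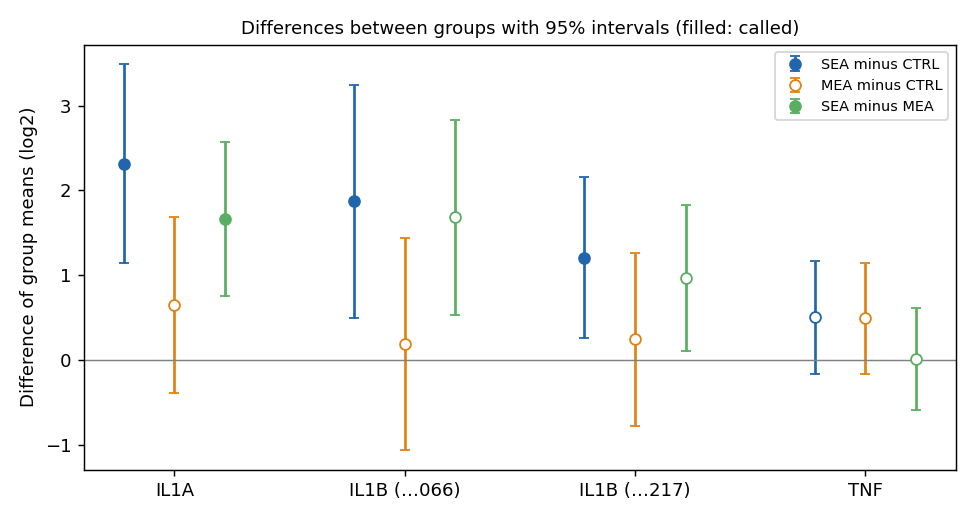
Difference of group means (log2, vertical axis) of each transcript in the 3 comparisons, with 95% intervals as bars and filled points for called transcripts. IL1A is called in SEA against CTRL (2.31) and against MEA (1.66), the IL1B transcripts against CTRL (1.87 and 1.20), and all TNF intervals reach across 0.

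Whether TNF changed less than the IL-1 transcripts was tested on the difference between transcripts in each horse, by two-sided exact permutation over horses, for 18 pairs of transcript and comparison. The IL1A change exceeded that of TNF by 1.81 in SEA against CTRL (p = 0.00606, adjusted p = 0.0454) and by 1.65 in SEA against MEA (p = 0.00341, adjusted p = 0.0454). The change of the first IL1B transcript exceeded that of TNF by 1.37 in SEA against CTRL (p = 0.0757, adjusted p = 0.189) and by 1.67 in SEA against MEA (p = 0.0206, adjusted p = 0.0740). For the second the excess over TNF was 0.71 (p = 0.221, adjusted p = 0.391) and 0.95 (p = 0.0961, adjusted p = 0.192). So IL1A passed the test against TNF, and neither IL1B transcript did, which is not a test of IL1A against IL1B. Without SEA replicate 1 (2.04, adjusted p = 0.0199) or MEA replicate 3 (1.99, adjusted p = 0.0273), the first IL1B transcript passed in SEA against MEA. In MEA against CTRL the excess over TNF was 0.16, -0.30 and -0.25, with adjusted p from 0.784 to 0.826. By exact permutation, the excess of IL1A over the first IL1B transcript was 0.45 in SEA against CTRL (adjusted p = 0.391). In SEA against MEA it was -0.018 (adjusted p = 0.958), and neither passed. IL1A exceeded the second IL1B transcript by 1.11 in SEA against CTRL (adjusted p = 0.0740), and passed without CTRL replicate 1 (1.32) or SEA replicate 6 (1.24) or 8 (1.26).

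The excess of IL1A over TNF lay close to the threshold. Its adjusted p was 0.0545 with scaling to the 75th percentile, 0.0513 with quantile normalization and 0.0506 on the authors' own values, for both SEA comparisons, and with slide means subtracted it was 0.120 for both, at 1.71 and 0.99. In SEA against CTRL it missed the threshold without CTRL replicate 2 (1.83), 4 (1.70), 5 (1.70) or 6 (1.66), or SEA replicate 2 (1.75), 3 (1.75), 4 (1.88), 5 (1.82) or 7 (1.61). In SEA against MEA it did so without SEA replicate 2 (1.59), 3 (1.59), 4 (1.72), 5 (1.66) or 7 (1.45), or MEA replicate 1 (1.65), 2 (1.59), 4 (1.65), 5 (1.71), 7 (1.54), 8 (1.57), 9 (1.56) or 10 (1.60). The direction was positive in each of these.

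The 2 IL1B transcripts moved together from horse to horse. After the mean of each group was subtracted, their levels correlated over 25 horses at r = 0.922 (permutation p = 1e-05, the smallest that 100000 shuffles can give, adjusted p = 6e-05 over 6 pairs; Spearman rho 0.942, p = 1e-05), and at 0.932 without the 2 horses farthest from the median. Within groups r was 0.959 in CTRL (n = 7, exact permutation p = 0.00595, adjusted p = 0.0357 over 18), 0.987 in MEA (n = 10, permutation p = 1e-05, adjusted p = 0.00018) and 0.794 in SEA (n = 8, exact permutation p = 0.0240, adjusted p = 0.0719). The matching rho values were 0.857, 0.927 and 0.833 (adjusted p = 0.0612, 0.00792 and 0.0554), and without 2 horses r was 0.971, 0.952 and 0.669. In CTRL the pair thus passed on r and missed on rho. On r it missed the threshold without CTRL replicate 1 (0.958), 3 (0.957), 4 (0.965), 5 (0.956) or 6 (0.952). It did so also with quantile normalization (0.945) and on the authors' values (0.963), though r itself moved little. Within slides 2, 3 and 4 the group-centred r was 0.863, 0.727 and 0.986, and no value was computed for slide 1, which held 5 horses.

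The excess of the first IL1B change over the second was similar in both SEA comparisons and passed the threshold in SEA against MEA, close to it. The first exceeded the second by 0.66 in SEA against CTRL (p = 0.0841, adjusted p = 0.189 by exact permutation), by -0.055 in MEA against CTRL (adjusted p = 0.836) and by 0.72 in SEA against MEA (p = 0.00756, adjusted p = 0.0454). SEA replicate 7 stood out: after centring on the mean of all horses, its first transcript lay 2.10 above its second, where the SEA median was 0.19 and the highest CTRL and MEA horses were at 0.81 and 0.19. Without that horse the SEA against MEA excess was 0.49 (adjusted p = 0.116), and it missed the threshold also with slide means subtracted (0.50, adjusted p = 0.339), without SEA replicate 2 (0.66), 3 (0.76), 4 (0.76) or 5 (0.63), and without MEA replicate 1 (0.72), 2 (0.72), 4 (0.70), 5 (0.68), 7 (0.72), 8 (0.69), 9 (0.70) or 10 (0.72). It missed it with the scalings to the 75th percentile (0.71, adjusted p = 0.0928) and to quantiles (0.75, adjusted p = 0.0522), with normexp (0.60, adjusted p = 0.147) and on the authors' values (0.72, adjusted p = 0.0506).

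**Figure D3:**
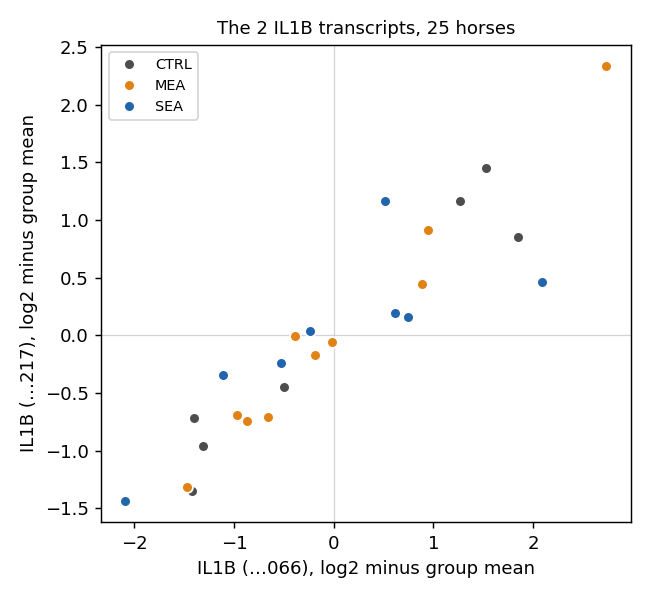
Level of the second IL1B transcript (vertical axis) against the first (horizontal axis), both as log2 intensity minus the group mean, for 25 horses coloured by group. The points follow 1 line (r = 0.922), with SEA replicate 7 to the right of it.

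Over all horses IL1A followed both IL1B transcripts. The group-centred r was 0.818 with the first (permutation p = 2e-05, adjusted p = 6e-05; rho 0.828, p = 1e-05) and 0.738 with the second (p = 0.00012, adjusted p = 0.00024; rho 0.782, p = 3e-05), and without 2 horses 0.783 and 0.744. Within slides 2, 3 and 4 it was 0.916, 0.911 and 0.794 with the first and 0.952, 0.578 and 0.766 with the second. Within CTRL, MEA and SEA it was 0.790, 0.770 and 0.912 with the first (adjusted p = 0.120, 0.0390 and 0.0212) and 0.848, 0.741 and 0.601 with the second (adjusted p = 0.0724, 0.0517 and 0.202). On rho the second passed in CTRL (0.929, adjusted p = 0.0405). The r of 0.770 in MEA was 0.405 without 2 horses, had a rho of 0.588 (adjusted p = 0.176) and missed the threshold when any of 8 of the 10 horses was left out. MEA replicate 3 had the highest level of all 3 IL-1 transcripts in its group.

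TNF followed IL1A in part and the IL1B transcripts hardly. Its group-centred r was 0.460 with IL1A (permutation p = 0.0282, adjusted p = 0.0423; rho 0.428, p = 0.0426, adjusted p = 0.0638), and 0.494 without 2 horses. With the first IL1B transcript it was 0.208 (p = 0.342, adjusted p = 0.410; rho 0.262, p = 0.228; 0.205 without 2 horses) and with the second 0.131 (p = 0.557, adjusted p = 0.557; rho 0.148, p = 0.495; 0.142 without 2 horses). Whether these values differ from those among the IL-1 transcripts was not tested. The correlation with IL1A passed the threshold on r and missed it on rho. Within slides 2, 3 and 4, TNF correlated with IL1A at 0.80, 0.70 and 0.244, with the first IL1B transcript at 0.695, 0.665 and 0.0232, and with the second at 0.642, 0.275 and 0.0323, so the values of slide 4 were the lowest for each pair.

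The correlation of IL1A with TNF lay close to the threshold. It missed the threshold without CTRL replicate 1 (0.433), 2 (0.454), 3 (0.448), 4 (0.462), 5 (0.352) or 6 (0.446), SEA replicate 5 (0.435), 7 (0.431) or 8 (0.459), or MEA replicate 4 (0.430), 8 (0.462) or 9 (0.422). CTRL replicate 5 had the lowest level of all 4 transcripts in its group. Within groups, TNF and IL1A correlated at 0.686 in CTRL (exact permutation p = 0.0837, adjusted p = 0.167; rho 0.607), 0.350 in MEA (permutation p = 0.323, adjusted p = 0.444; rho 0.297) and 0.329 in SEA (exact permutation p = 0.437, adjusted p = 0.524; rho 0.0952). Without 2 horses these values were 0.0752, 0.735 and 0.0461. TNF and the first IL1B transcript correlated at 0.447, 0.133 and 0.0345 in CTRL, MEA and SEA, and TNF and the second at 0.472, 0.143 and -0.410 (adjusted p = 0.444, 0.758 and 0.444), the last of which was 0.330 without 2 horses. No pair of TNF with an IL-1 transcript passed the threshold within a group, but without CTRL replicate 7 IL1A and TNF passed in CTRL (0.930, adjusted p = 0.0167).

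**Figure D4:**
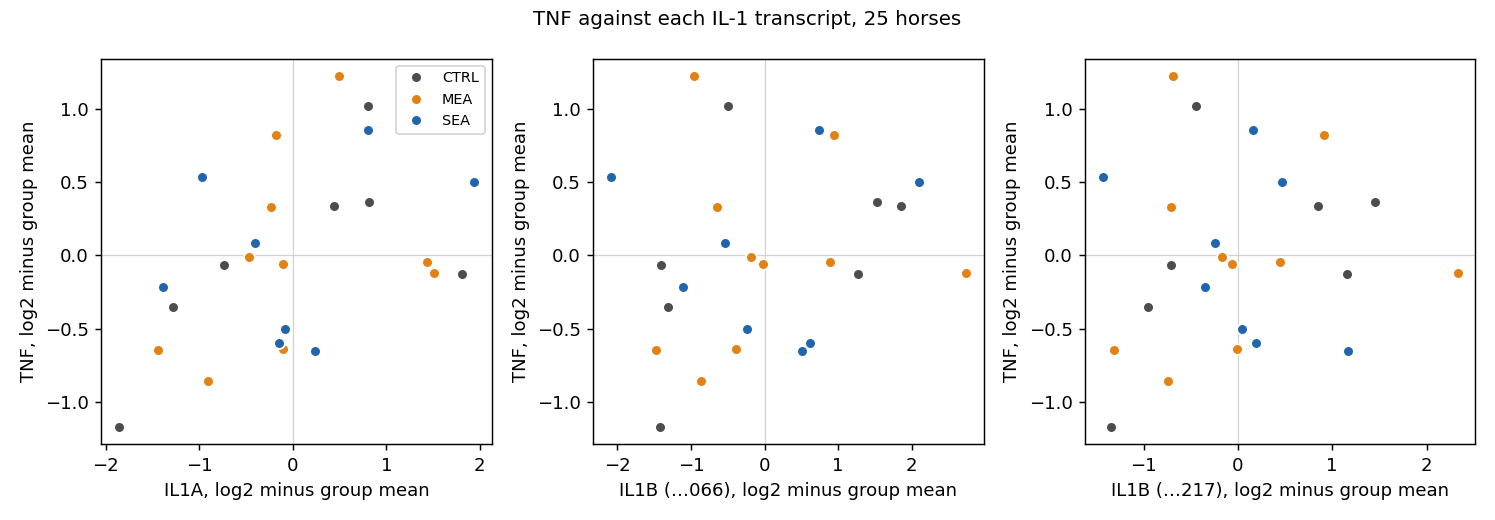
TNF (vertical axes) against IL1A and the first and second IL1B transcripts (horizontal axes), as log2 intensity minus the group mean, for 25 horses coloured by group. The points scatter widely, with r = 0.460, 0.208 and 0.131.

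Within groups, TNF and IL-1 ranked alike in some horses and apart in others, and this was not tested. CTRL replicate 5 ranked 7 of 7 for all 4 transcripts, CTRL replicate 3 ranked 1 or 2 for each, and MEA replicate 9 ranked 10 of 10 for each IL-1 transcript and 9 for TNF. SEA replicate 1 ranked 8 of 8 for both IL1B transcripts and 7 for IL1A, but 2 for TNF. SEA replicate 6 ranked 1 for the second IL1B transcript and 3 for IL1A, but 8 for TNF, whereas SEA replicate 5 ranked 1 for TNF and 2 for IL1A. MEA replicate 3 ranked 1 for each IL-1 transcript and 7 of 10 for TNF, and MEA replicate 8 ranked 1 for TNF, 3 for IL1A, and 9 and 7 for the IL1B transcripts.

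The mean of neutrophil markers correlated with the second IL1B transcript in SEA horses. Of 5 tested neutrophil markers, CSF3R (log2 difference 2.53), FCAR (1.90) and AQP9 (1.51) were higher in SEA than in CTRL, and LTF, a protein of neutrophil granules, was lower (-2.10). LTF was also called lower in MEA than in CTRL (-1.77), so the mean of the markers includes a transcript that moved against the others named. The mean level of the 5 ran from 7.07 to 9.63 in CTRL horses (median 8.84), from 7.89 to 12.08 in MEA horses (median 8.83) and from 6.97 to 11.51 in SEA horses (median 9.84). In SEA it correlated with the second IL1B transcript at r = 0.961 (exact permutation p = 0.000769, adjusted p = 0.00923 over 12; rho 0.929, p = 0.00223) and at 0.765 without 2 horses. The values were 0.761 with the first IL1B transcript (adjusted p = 0.104), 0.485 with IL1A (adjusted p = 0.324) and -0.562 with TNF (exact permutation p = 0.137, adjusted p = 0.235; rho -0.667), and the difference between these values was not tested. The value of 0.961 fell to 0.906 without SEA replicate 1 (adjusted p = 0.0738), the horse with the lowest marker mean, to 0.958 without SEA replicate 6 (adjusted p = 0.0738), to 0.737 with quantile normalization (adjusted p = 0.137) and to 0.906 on the authors' values (adjusted p = 0.1003).

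In MEA horses the marker mean correlated with the second IL1B transcript at 0.813 (adjusted p = 0.0863), but at 0.402 without MEA replicate 3, and without MEA replicate 6 both IL1B transcripts passed (0.884 and 0.895). It correlated with TNF at -0.204 (adjusted p = 0.620). SEA replicate 1 had the lowest marker mean of all 25 horses (6.97), below every CTRL horse, although most of its counted cells were neutrophils. It also had the lowest epithelial (4.79) and lymphocyte means (5.59). SEA replicate 6 had the fewest counted neutrophils in its group and the highest marker mean there (11.51), and MEA replicate 3 had the highest of all (12.08). The marker mean was not tested against the counted neutrophils. The counted percentage of neutrophils in the fluid, matched to arrays by horse number and tested within MEA and SEA, did not pass the threshold with any member: the lowest adjusted p of 8 was 0.806, with r from -0.509 for the second IL1B transcript in SEA to 0.316 for TNF in MEA. Over the other scalings -0.509 ran from -0.564 to -0.0757 and 0.316 from 0.0227 to 0.497. The value of -0.509 turned to 0.0472 without SEA replicate 6, and it was -0.936 and passed without SEA replicate 1 (adjusted p = 0.0460). The part of neutrophils in the results was not tested.

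**Figure D5:**
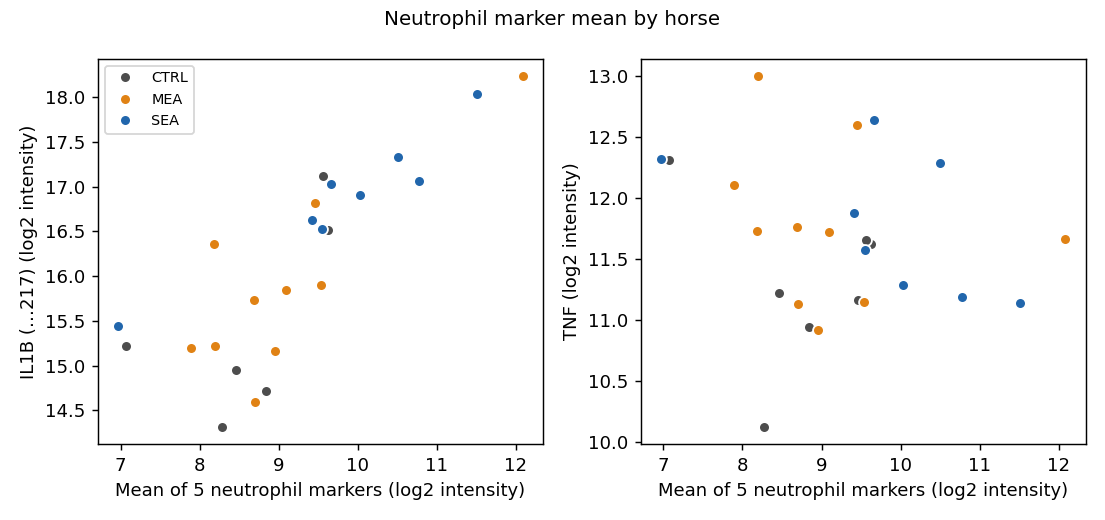
The second IL1B transcript and TNF (vertical axes, log2 intensity) against the mean log2 intensity of 5 neutrophil markers (horizontal axes) in each horse, coloured by group. In SEA horses r is 0.961 for IL1B and -0.562 for TNF.

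Markers of other cells differed as well. All 6 epithelial transcripts were lower in SEA than in CTRL, led by EPCAM (-2.55), an adhesion protein of epithelium, and 5 of 6 were lower in MEA (EPCAM -1.34). Of all tested transcripts, 16.0% were called higher and 16.7% lower in SEA against CTRL, and 6.53% lower in MEA against CTRL. The symbols of all markers come from lists of transcripts that the study called changed in these horses, so the marker counts are not comparable with these shares. The mean level of the epithelial transcripts had medians of 9.64 in CTRL, 8.36 in MEA and 8.17 in SEA horses. Of 4 macrophage transcripts, CD68 (0.84) and EMR1 (1.56) were higher in SEA. MARCO, a scavenger receptor, was at -1.12 and VSIG4 at -0.54, and both missed the threshold (adjusted p = 0.162 and 0.578 by limma). The medians of the macrophage mean were 11.21, 11.33 and 11.26. They hardly differed, although counted lavage cells were nearly all macrophages in CTRL and mostly neutrophils in SEA horses. Of 7 lymphocyte transcripts, CD247 (0.96), a chain of the T cell receptor complex, SKAP1 (0.80) and 1 of GZMB (0.97), a protease of killer cells, were higher. Another of GZMB was lower (-1.35). The remaining GZMB transcripts were not called, but their means were also lower in SEA than in CTRL (5.33 against 6.46, and 11.08 against 11.78). The medians of the lymphocyte mean were 7.36, 7.16 and 7.38. The part of these cells in the results was not tested.

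Other genes of the pathways were higher in SEA horses than in CTRL. The symbols come from lists of transcripts that the study called changed in these same horses, so the counts are no independent evidence of direction, and genes without a symbol there are not counted. Of all tested transcripts 16.0% were called higher and 16.7% lower, and shares within lists chosen in this way are not comparable with these. Of 6 receptors and decoys of the IL-1 family 5 were higher (median 2.01): IL18R1 (2.75), IL18BP (2.50), which binds IL18, IL18RAP (2.05), IL1RAP (1.22), the partner of the IL-1 receptor, and IL1R1 (0.96). The CTRL means of IL18R1 (3.96), IL18RAP (3.71) and IL1R1 (4.05) lay below 4.5, under which the filter counted values as low. The sizes of these rises thus rest on low CTRL values. IL1R2, the decoy receptor of IL-1, was at 1.97 and missed the threshold (adjusted p = 0.110). The ligands IL1A, IL1B and IL18 (1.15) were all higher, 4 of 4 transcripts with a median of 1.54, and so was NLRP3 (1.69), which builds the complex that leads to cleavage of interleukin 1 beta, as 1 of 1. Of 9 transcripts of IL-1 and Toll signalling 8 were higher (median 1.25), led by TLR4 (2.36), MAP3K8 (1.72) and IRAK3 (1.42), a brake on this signal.

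Some genes of both sides could not be counted, since they had no symbol in the lists: IL1RN, IL33, CASP1, PYCARD, MYD88, IRAK1, TRAF6 and MAP3K7 for IL-1, and TRADD, TRAF2, RIPK1, BIRC3 and ADAM17 for TNF. Of these, the paper's text reports TRAF6 and TAK1 (another name of MAP3K7) as overexpressed in SEA, but neither was matched to a symbol. All 7 transcripts of TNF receptors and adaptors that had one were higher in SEA (median 1.54), such as TNFRSF1B (2.14), TRAF1 (1.62), TNFAIP3 (2.40), which limits NF kappa B, and both TNFRSF1A transcripts (0.76 and 0.76). Of the 3 transcripts for TNF and its release and relatives, LITAF (1.16) and TNFSF14 (1.81) were higher (median 1.16). The CTRL mean of TNFSF14 was 3.79, below the 4.5 of the filter. All 8 NF kappa B transcripts were higher (median 1.30), including REL (1.51), NFKBIA (1.55) and NFKBID (2.05). Of 15 transcripts of genes that these cytokines induce, 14 were higher (median 1.87), among them VCAM1 (2.61), IL8 (2.30) and PTGS2 (2.17), the enzyme of prostaglandin synthesis, and CCL20 missed the threshold (1.16, adjusted p = 0.184).

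The lists were also counted in the other comparisons, with the same limit from the choice of symbols. Over all pathway lists, the members included, 5 of 53 tested transcripts were called higher in MEA against CTRL and 6 of 53, IL1A among them, in SEA against MEA. Of all tested transcripts 3.25% and 1.44% were called higher there, and shares within the lists are not comparable with these. In MEA against CTRL IL1RAP (0.92), MAP3K8 (1.30), NFKBID (1.17), 1 of 3 CXCL2 transcripts (1.095) and PTGS2 (1.34) were higher. In SEA against MEA IL1A, IL18R1 (2.62), TAB2 (0.997), TNFSF14 (1.56), CCL20 (2.004) and VCAM1 (1.93) were higher. The MEA means of IL18R1 (4.10) and TNFSF14 (4.05) lay below the 4.5 of the filter. Over 5 other scalings, each called transcript of the pathway and marker lists kept its direction, but the sizes of some moved. With normexp the median of the 5 called receptors and decoys of the IL-1 family in SEA against CTRL was 0.82. In SEA against MEA IL18R1 fell to 0.90, TNFSF14 to 0.37 and TAB2 to 0.56. NLRP3 fell to 0.96 in SEA against CTRL, and MAP3K8 to 0.70 and NFKBID to 0.56 in MEA against CTRL. The medians of the called neutrophil and lymphocyte markers in SEA against CTRL were 0.89 and 0.27, whereas that of the IL-1 family ligands was 1.61. In the same setting and comparison, the medians of called transcripts were 1.02 for TNF receptors and adaptors and 0.89 for TNF release and relatives. That of IL-1 and Toll signalling was 0.85. Normexp and 75th percentile scaling left 0 calls in SEA against MEA.

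The transcripts whose levels most resembled each member were found among 1680 tested transcripts with a symbol, which came from the same lists of changed transcripts, by r over 25 group-centred horses, as a description. For IL1A they were 3 transcripts of the neutrophil chemokine CXCL2 (0.891, 0.853 and 0.817), TNFAIP3 (0.80) and the chemokine CCL18 (0.774). For the first IL1B transcript they were TNFAIP3 (0.897), 2 of SOCS3 (0.886 and 0.863), PTX3 (0.862) and G0S2 (0.854). For the second they were PLAUR (0.878), 2 of TREM1 (0.868 and 0.862), a receptor that amplifies inflammation in myeloid cells, IL8 (0.866) and G0S2 (0.866). For TNF they were XPC (0.703), WNK2 (0.688), PSMD9 (0.680), DSG2 (0.678) and ZNF32 (0.653). The log2 differences of these 5 in SEA against CTRL were -0.93, -1.48, -0.87, -1.27 and -0.95. Of all tested transcripts 16.7% were called lower there, which is not comparable, since candidates were picked from changed transcripts. The share of candidates that were lower was not counted. Transcripts that the lists do not name could not appear here.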

How the data were processed

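RNA of lavage cells from 25 horses was measured on one-colour arrays. In the deposited scanner files each spot is an intensity that the scanner software had corrected for background but not normalized between arrays. Flags for spots above background, saturated or outlying are of another kind, deposited as 0 or 1 (unit other). The table of the authors holds intensity on a linear scale after cyclic loess, and its log2 values correlated with those used here at 0.999. Here control spots were left out, log2 intensities of all other spots were normalized by cyclic loess (span 0.7, 3 iterations), and spots of a probe were then averaged without those marked as outliers. A transcript below 4.5 on 19 or more of the 25 arrays was not tested, which kept 4930 of 7238. Groups were compared with limma 3.58.1 in R 4.3.3, in fits of only the 2 groups compared, with Benjamini-Hochberg adjustment over all tested transcripts. Permutation tests in Python 3.11.15 with scipy 1.17.1 and numpy 2.4.6 were two-sided, exact for differences and for correlations over fewer than 10 horses, with 100000 shuffles otherwise. A difference between transcripts or a correlation passed at an adjusted p below 0.05. The tests were also run on simulated data, the outcome of which is not given here, and the number of arrays limits the precision.

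The members and lists were chosen with earlier results of these data known. Spots marked as outliers were at first kept and then left out, and each scaling at first had its own filter and then the same 4930 transcripts. Both changes were made after the counts had been seen. Named genes were, for each list and comparison, the called transcripts with the largest rise and fall and up to 3 of known role, the leading marker of each cell type, and the 5 transcripts most like each member. Where a list had 5 or fewer calls, or few that missed, the others named were chosen after their values were seen. The result of 1 neutrophil marker is not reported here. Alternatives covered the scaling, background correction, filters, test, threshold, and slide, scan date or replicate number as blocks.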

Additional observations from a re-analysis of the deposited data

Results flagged for a closer look

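Among 42 groups of horses examined, 3 held a horse far from the others. Chance would give such a horse in about 1 in 20 groups, so 3 of 42 is near the number from chance alone. The groups also share horses and are not independent. The mean level of the neutrophil markers was highest in MEA replicate 3, whose gap to the next horse was 0.606 of the range of the group, and lowest in SEA replicate 1, with a gap of 0.539. The mean level of the macrophage markers was lowest in CTRL replicate 1, with a gap of 0.621.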

How the results depend on the processing

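The IL1A and first IL1B calls in SEA against CTRL kept their side of the threshold under all 15 other settings and without each horse, and no call of a member changed direction in that comparison. Results near a threshold did not keep their side, and the cause was not tested. Every spot of the members was well above background, and groups held 7 to 10 horses. Keeping outlier-marked spots and leaving LTF out of the marker mean were chosen after seeing the data. Scaling to the 75th percentile moved the median of all tested transcripts in SEA against MEA to -0.111. The replicate numbers do not pair horses: over transcripts, r between horses of the same number ran from -0.172 to 0.316 (median -0.0958) in SEA and CTRL, from -0.442 to 0.369 (0.142) in MEA and CTRL, and from -0.365 to 0.407 (-0.0508) in SEA and MEA.

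The count of calls in SEA against CTRL (1612) fell to 842 with normexp. In MEA against CTRL (482) it was 157 with normexp (30 higher, 127 lower), 183 with slide as a block, 220 with scan date as a block, 138 with the replicate block and 210 at an adjusted p below 0.05. In SEA against MEA (110, 71 higher and 39 lower) limma called 0 with 75th percentile scaling, normexp, slide as a block and the replicate block, where 978, 848, 659 and 638 had an unadjusted p below 0.05. It called 24 with quantile normalization (20 higher, 4 lower), 75 on the authors' values (57 and 18), 97 without the filter (77 and 20), 2 with scan date as a block, 2 at an adjusted p below 0.05 and 279 with all 25 arrays in 1 fit. With the main scaling and no block, the rank sum test called 25, 21 higher and 4 lower. Without single horses the count ran from 156 to 750 in MEA against CTRL, lowest without CTRL replicate 1 and over 1.5 times from 482 also without replicates 4 (195) and 6 (177) of CTRL and 2 (291), 5 (301), 7 (750), 9 (312) and 10 (320) of MEA. In SEA against MEA it ran from 2 to 559 and moved over 1.5 times from 110 without each of the 18 horses in turn: 355, 2, 18, 43, 27, 214, 29 and 38 without SEA replicates 1 to 8, and 235, 35, 559, 63, 328, 61, 4, 16, 10 and 3 without MEA replicates 1 to 10.

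For single members, the second IL1B transcript lost its call in SEA against CTRL with quantile normalization (0.91), and by the rank sum test and at an adjusted p below 0.05 (both 1.20). TNF gained one with normexp (0.68). IL1A lost its call in SEA against MEA with 75th percentile scaling (1.74), quantile normalization (1.53), normexp (1.76), the rank sum test and an adjusted p below 0.05 (both 1.66), slide (1.23) or scan date (1.29) as a block, and the replicate block (1.43). TNF turned to -0.061 there with quantile normalization and to -0.070 with the replicate block. Without single horses, the second IL1B transcript ran from 0.98 to 1.45 and TNF from 0.31 to 0.67 in SEA against CTRL. In MEA against CTRL IL1A ran from 0.34 to 0.95, TNF from 0.29 to 0.66, the first IL1B transcript from -0.12 to 0.49 and the second from -0.018 to 0.48. In SEA against MEA IL1A ran from 1.39 to 1.86, the IL1B transcripts from 1.38 to 1.99 and from 0.80 to 1.22, and TNF from -0.11 to 0.15.

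The excess of IL1A over TNF, in SEA against CTRL and against MEA, missed the threshold with 75th percentile scaling (1.85 and 1.66), quantile normalization (1.70 and 1.59), the authors' values (1.80 and 1.64) and slide means subtracted (1.71 and 0.99). That of the first over the second IL1B transcript in SEA against MEA missed it with the same settings (0.71, 0.75, 0.72 and 0.50) and with normexp (0.60), and in MEA against CTRL it turned to 0.11 with quantile normalization and 0.13 with normexp. The excess of IL1A over the second IL1B transcript in SEA against CTRL passed with normexp (1.24). That over the first in SEA against MEA turned to 0.052 with normexp and 0.0043 with outlier-marked spots kept. Without single horses, IL1A over TNF ran from 1.61 to 2.14 in SEA against CTRL, from -0.019 to 0.49 in MEA against CTRL and from 1.45 to 1.87 in SEA against MEA. IL1A over the second IL1B transcript ran from 0.90 to 1.32 in SEA against CTRL and over the first from -0.18 to 0.14 in SEA against MEA. The first IL1B transcript over the second ran from -0.17 to 0.11 in MEA against CTRL and from 0.49 to 0.83 in SEA against MEA, and over TNF from 1.43 to 2.04 in SEA against MEA.

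The group-centred r of IL1A and TNF missed the threshold with 75th percentile scaling (0.415), quantile normalization (0.423), normexp (0.416) and outlier-marked spots kept (0.444). That of TNF and the second IL1B transcript turned to -0.0489 with 75th percentile scaling. Within MEA, r of TNF with the first and second IL1B transcripts turned to -0.129 and -0.150 with that scaling and to -0.0377 and -0.0437 with quantile normalization. Within SEA, that of TNF with the first turned to -0.138 and -0.0195. IL1A and the second IL1B transcript passed within MEA with 75th percentile scaling (0.746), normexp (0.759) and outlier-marked spots kept (0.767), and within CTRL with normexp (0.896). IL1A and the first missed the threshold within MEA with quantile normalization (0.658) and on the authors' values (0.730), and within SEA with quantile normalization (0.859). The IL1B pair missed it within CTRL with quantile normalization (0.945) and on the authors' values (0.963), and passed within SEA with normexp (0.822) and on the authors' values (0.845).

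With the neutrophil marker mean, the second IL1B transcript in SEA missed the threshold with quantile normalization (0.737) and on the authors' values (0.906), and passed in MEA with normexp (0.829), with which TNF in CTRL turned to 0.324. With the neutrophil percentage, the first IL1B transcript in MEA turned to 0.0095 with 75th percentile scaling.

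Without single horses, the group-centred r of TNF ran from 0.352 to 0.519 with IL1A and from -0.0018 to 0.223 with the second IL1B transcript. Within CTRL, MEA and SEA, IL1A and TNF ran from 0.422 to 0.930, from 0.205 to 0.471 and from 0.106 to 0.544. Within CTRL, TNF and the second IL1B transcript ran from 0.131 to 0.791 and the IL1B pair from 0.952 to 0.984. The IL1B pair missed the threshold without CTRL replicate 1, 3, 4, 5 or 6, and within SEA it passed without SEA replicate 6 or 7. Within SEA, TNF and the first IL1B transcript ran from -0.277 to 0.398, IL1A and the first from 0.840 to 0.952, and the IL1B pair from 0.596 to 0.906. Within MEA, TNF ran from -0.0148 to 0.433 with the first and from -0.0129 to 0.402 with the second IL1B transcript, and IL1A from 0.632 to 0.870 and from 0.578 to 0.822. IL1A and the first missed the threshold within MEA without MEA replicate 1, 2, 3, 4, 5, 6, 9 or 10 and within SEA without SEA replicate 7, and IL1A and the second passed within MEA without MEA replicate 7 or 8. With the neutrophil marker mean, TNF in CTRL ran from -0.550 to 0.80, the second IL1B transcript in SEA from 0.906 to 0.979, and in MEA IL1A ran from -0.329 to 0.648 and the IL1B transcripts from 0.223 to 0.884 and from 0.402 to 0.895. With the neutrophil percentage, the second IL1B transcript in SEA ran from -0.936 to 0.0472, TNF in SEA from -0.310 to 0.424, and the IL1B transcripts in MEA from -0.160 to 0.218 and from -0.258 to 0.0762.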
